A study of Mus musculus with 6 samples.

Results

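The receptors of the TGFβ family described here were chosen by name, as genes that encode receptors for TGFβ, activins and bone morphogenetic proteins (BMPs), the family for which Cripto is a co-receptor. Of 10 receptor genes named, 9 were present among the 13008 genes of the table, namely the type I receptors Tgfbr1, Acvr1, Acvr1b and Acvrl1, the type II receptors Tgfbr2, Acvr2a, Acvr2b and Bmpr2, and the co-receptor Eng. Bmpr1a was not analysed here. RNA-seq was performed on GFP+/F4/80+/Ly6CLow macrophages (MPs) isolated by FACS from skeletal muscle on day 5 after injury with cardiotoxin, in 3 Control and 3 Cripto KO samples from male C57BL/6J mice 3 months of age. By their labels, Control mice were wild type and Cripto KO mice were Tg:LysMCre::Cripto-/-. The study describes the Control mice as Tg:LysMCre::R26mTmG and the Cripto KO mice as Tg:LysMCre::R26mTmG::Cripto fl/fl, so that both groups would carry the Cre, which is driven by lysozyme M in myeloid cells, and a reporter that turns on GFP where Cre has acted. Cripto is thus deleted only in cells in which Cre has acted, and the sorted cells can include some that still carry the gene. The gene that encodes Cripto, Tdgf1, was not analysed here, and in these RNA-seq samples the groups therefore rest on their labels.

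Ligands of this family bind a complex of type II and type I receptors, which are kinases of serine and threonine. The type II receptor phosphorylates the type I receptor, and the type I receptor then phosphorylates SMAD proteins that move to the nucleus. TGFBR1 (ALK5) pairs with TGFBR2 for TGFβ, ACVR1B (ALK4) pairs with ACVR2A or ACVR2B for activins and Nodal, ACVR1 (ALK2) and ACVRL1 (ALK1) pass on BMP signals, and BMPR2 is a type II receptor for BMPs. Cripto binds ACVR1B for Nodal signaling, and can hinder the access of activin and TGFβ to their receptors. In macrophages TGFβ is known to restrain inflammatory activity.

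Within the cells the 4 type I receptors share a stretch rich in glycine and serine, the GS box, which the type II receptor phosphorylates. Its coding sequence is shown because close copies of such a stretch would make reads hard to assign, and the capitals mark the 6 codons at its centre (GENCODE transcripts on GRCm38, read along the coding strand).
Tgfbr1 (chr4:47393462-47396368, plus strand, exons 3 and 4): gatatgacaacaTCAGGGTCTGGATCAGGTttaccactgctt
Acvr1b (chr15:101195030-101198797, plus strand, exons 3 and 4): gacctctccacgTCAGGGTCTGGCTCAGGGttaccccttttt
Acvrl1 (chr15:101136140-101136181, plus strand, exon 7): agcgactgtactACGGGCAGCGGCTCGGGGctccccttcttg
Acvr1 (chr2:58474219-58474260, minus strand, exon 8): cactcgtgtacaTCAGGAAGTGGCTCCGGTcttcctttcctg
For Tgfbr1 and Acvr1b the stated span includes the intron between the exons. Over these 42 bases, Tgfbr1 and Acvr1b were most alike, with 31 identical bases, and Tgfbr1 and Acvrl1 least alike, with 16. No word of 31 bases was shared between any pair of the 9 receptor genes (0 shared words for each). Words shared with any other gene made up between 0.0% and 1.66% of the words of 8 receptors. In Acvr2a it was 7.32%, and all 416 of these words were shared with Orc4, which overlaps it on the opposite strand. The counting is not stated to use strand, so reads of Acvr2a and Orc4 cannot be told apart there. Eng and Fpgs overlap on opposite strands in the same way, with 31 shared words.

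Each deposited value is a normalized signal, the reads of the gene plus 0.5, divided by a normalized size of the library. It is called the normalized value here. Recovered reads summed to between 12688968 and 15659847 per sample. The macrophage gene Adgre1, which encodes F4/80, was between 1065 and 1384, and Ly6c2, one of the genes that encode Ly6C, was between 2.44 and 3.42. Among Control samples 2 stood apart. Control replicate 1, whose label says male, had a value of 171 for Xist, against at most 0.885 elsewhere. Control replicate 2 had a value of 11066 for Lyz2, against at most 28.3 elsewhere. Control replicates 1 and 3, at 25.2 and 21.4, were in this gene like the Cripto KO samples, at 21.2 to 28.3. Samples with the same Control label thus differed in Lyz2, and the cause was not tested. The fold changes of the receptors are therefore also given without Control replicate 1 and without Control replicate 2. Reads of 15 mitochondrial genes made up 0.725% to 0.807% of the Control and 1.01% to 1.08% of the Cripto KO libraries, and whether this affects the receptor values was not tested.

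Tgfbr2 and Tgfbr1 were the most abundant of the receptors in Ly6CLow MPs, and Acvr2b the least. Levels of different genes were compared per kilobase (kb) of the length that all annotated exons of the gene cover. The mean over the 6 samples was 29.8 per kb for Tgfbr2 and 25.7 for Tgfbr1. It was 15.6 for Acvrl1 and 12.1 for Eng, both known from blood vessels, where ENG presents ligand to ACVRL1. The activin and BMP type I receptors followed, with 3.79 per kb for Acvr1b and 3.21 for Acvr1. The other type II receptors were lower still, with 1.99 for Bmpr2, 1.56 for Acvr2a and 0.544 for Acvr2b. From the highest to the lowest the mean level per kb differed 54.8-fold. Tgfbr2 was above Tgfbr1 in 5 of 6 samples, so these neighbours did not differ beyond their spread. Acvr1b was above Acvr1 in 6 of 6 samples, although their ranges over all samples overlapped (3.41 to 4.40 and 2.88 to 3.57). All other neighbours in this order had ranges that did not overlap. The order depends on the length used. With the mean length of the coding transcripts Tgfbr1 (55.3 per kb) came before Tgfbr2 (42.2), and with this or the longest transcript Acvr1 (6.33 and 4.70) came before Acvr1b (3.79 in both).

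**Figure D1:**
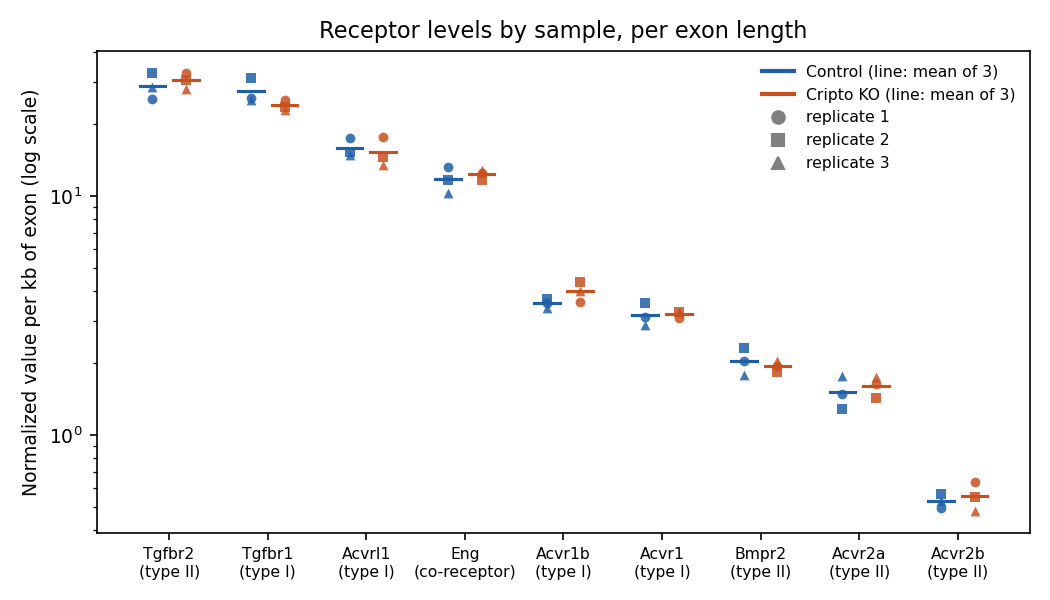
Normalized value per kb of exon length (log scale) of the 9 receptors, ordered by their mean. Each point is a sample, its shape gives the replicate number, and lines are means of 3 samples. The receptors span from 0.483 per kb (Acvr2b) to 32.9 per kb (Tgfbr2), and Control (blue) and Cripto KO (orange) points overlap for every receptor.

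As a share of each receptor class per kb, Tgfbr1 made up 54.7% ± 3.27 of the 4 type I receptors in Control MPs, against 51.6% ± 0.804 in Cripto KO MPs (SD, n = 3 each). Acvrl1 was the other large part, with 31.8% ± 3.27 and 32.7% ± 2.52 (SD, n = 3 each). Of the 4 type II receptors, Tgfbr2 made up 87.6% ± 1.21 in Control MPs, against 88.1% ± 1.13 in Cripto KO MPs (SD, n = 3 each). For every one of these 8 receptors the shares of the groups overlapped.

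Control and Cripto KO MPs were compared to ask whether the loss of Cripto goes with a change in the receptors that it works with. None of the 9 receptors passed the test. In such bulk samples fewer cells that express a gene and less RNA of it per cell cannot be told apart. Over all genes the limma test called 17 of 13008, or 0.131%, at an adjusted p-value under 0.05, and 1117, or 8.59%, had an unadjusted p-value under 0.05. Of all genes, 0.0846% were called with higher values in Control, and by unadjusted p 4.6% were higher in Control and 3.99% in Cripto KO MPs. Of the receptors 0 were below 0.05 by either measure in limma, in the edgeR quasi-likelihood test or in DESeq2 over the 6 samples. The adjusted p-values ran from 0.625 to 0.977 (limma). In 0 of the 9 receptors did the Control values stand apart from the Cripto KO values without overlap, against 14.5% of all genes. Here a log2 fold change is log2(Control/Cripto KO) and is positive where Control was higher, which was the case for 3 receptors, while 6 were higher in Cripto KO MPs. Its median was -0.06 over the receptors and 0.01 over all genes, and the median absolute value was 0.08 and 0.12.

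Tgfbr1, the kinase through which TGFβ activates SMAD2 and SMAD3, had the largest difference among the receptors. Its normalized value was 168, 205 and 165 in Control replicates 1, 2 and 3, against 165, 155 and 150.1 in the 3 Cripto KO replicates. Control replicate 2 was well above all other samples, and the lowest Control sample lay just below the highest Cripto KO sample. The log2 fold change was 0.19 (standard error 0.09, 95% confidence interval -0.02 to 0.39, adjusted p = 0.625, limma). Leaving out Control replicate 2 gave 0.09, and leaving out Control replicate 1 gave 0.23 (adjusted p = 0.795 and 0.465, limma). Unadjusted p was 0.0681 with all samples, 0.0405 without Control replicate 1 and 0.0423 without Control replicate 3 (limma). It was 0.0566, 0.138 and 0.184 without Cripto KO replicate 1, 2 and 3, and above 0.0896 without Control replicate 2 (limma).

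Tgfbr2, which binds TGFβ and recruits TGFBR1, was 209, 269 and 235 in Control MPs, against 268, 252 and 231 in Cripto KO MPs. The highest and the lowest of its 6 values were both Control samples, and the groups overlapped throughout. Its log2 fold change of -0.08 (standard error 0.10, 95% confidence interval -0.30 to 0.14, adjusted p = 0.859, limma) became 0.01 when Control replicate 1 was left out and -0.17 when Control replicate 2 was. The gene lies on chromosome 9 (116084293 to 116175360, GRCm38), 5.14 Mb from Tdgf1, the gene that was deleted. Tgfbr1 lies on chromosome 4 (47353222 to 47414931).

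The receptors for activins had low levels, and none passed the test. Acvr1b, the type I receptor that Cripto binds, was 15.9, 16.4 and 15.1 in Control MPs, against 16.0, 19.4 and 17.7 in Cripto KO MPs. Cripto KO replicates 2 and 3 were above all Control samples and replicate 1 was among them (log2 fold change -0.16, standard error 0.11, 95% confidence interval -0.41 to 0.09, adjusted p = 0.722, limma). The fold change was -0.23 without Cripto KO replicate 1 and -0.09 without Cripto KO replicate 2. Acvr2a was 8.50, 7.30 and 10.1 in Control MPs, against 9.30, 8.18 and 9.96 in Cripto KO MPs, all of the latter within the Control range (log2 fold change -0.09, 95% confidence interval -0.45 to 0.27, adjusted p = 0.908, limma). Acvr2b was 1.95, 2.23 and 2.08 in Control MPs, against 2.51, 2.16 and 1.90 in Cripto KO MPs, with the Control samples inside the range of the Cripto KO samples (log2 fold change -0.06, 95% confidence interval -0.61 to 0.49, adjusted p = 0.964, limma). It rested on 25 to 39 reads per sample. Counting error alone would give an SD of 0.27 on the log2 scale at that depth, and the SD within groups was 0.16. Acvr2b was the only receptor whose interval reached beyond a 1.5-fold difference (0.657-fold to 1.40-fold), while the intervals of the other 8 stayed within it.

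Acvr2b also lies on chromosome 9 (119402118 to 119434995, GRCm38), 8.46 Mb from Tdgf1 and 330.6 kb from Vill, a gene of the villin family. Vill was the only gene within 1 Mb of a receptor with an adjusted p-value under 0.05 (555 reads in Control and 1 in Cripto KO samples, adjusted p = 0.00149, limma). For Acvr2b itself the values of the groups overlapped.

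Receptors for BMPs did not pass the test either. Acvr1 was 15.1, 17.2 and 13.9 in Control MPs, against 15.0, 15.9 and 15.8 in Cripto KO MPs, with all Cripto KO values inside the Control range (log2 fold change -0.02, 95% confidence interval -0.28 to 0.24, adjusted p = 0.977, limma). Bmpr2, which has a long cytoplasmic tail, was 36.8, 41.5 and 32.1 in Control MPs, against 34.9, 33.0 and 36.8 in Cripto KO MPs. Again the Control samples gave both the highest and the lowest value (log2 fold change 0.07, 95% confidence interval -0.17 to 0.31, adjusted p = 0.891, limma; -0.02 without Control replicate 2).

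Without Control replicate 1, the log2 fold change was -0.01 for Acvr1, -0.17 for Acvr1b, -0.09 for Acvr2a, -0.01 for Acvr2b and 0.07 for Bmpr2. Without Control replicate 2 it was -0.10 for Acvr1, -0.19 for Acvr1b, 0.02 for Acvr2a and -0.11 for Acvr2b. Of these receptors, Acvr2a and Bmpr2 thus changed sign without Control replicate 2, and adjusted p-values in these fits ran from 0.68 upward (limma).

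Acvrl1 and Eng, which are best known from endothelial cells, were present at clear levels. Acvrl1 was 74.5, 65.6 and 63.3 in Control MPs, against 75.5, 62.3 and 57.7 in Cripto KO MPs (log2 fold change 0.06, 95% confidence interval -0.18 to 0.31, adjusted p = 0.906, limma; -0.01 without Control replicate 1 and 0.09 without Control replicate 2). Eng was 53.7, 47.6 and 41.8 in Control MPs, against 50.4, 47.5 and 52.2 in Cripto KO MPs (log2 fold change -0.08, 95% confidence interval -0.30 to 0.15, adjusted p = 0.869, limma; -0.16 without Control replicate 1 and -0.08 without Control replicate 2). In both genes the values of one group lay across those of the other. The summed value of 12 endothelial markers was 72.6 to 84.3 in Control and 77.2 to 85.5 in Cripto KO samples, with Pecam1 from 16.2 to 21.2 and Cdh5 from 7.79 to 12.4. Of these markers 0 were below 1 in all samples, and 1, or 8.33%, had an unadjusted p-value under 0.05 (limma), against 8.59% of all genes. The part of endothelial cells in the levels of Acvrl1 and Eng was not tested. Acvrl1 and Acvr1b are neighbours on chromosome 15, with 28.7 kb between them.

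**Figure D2:**
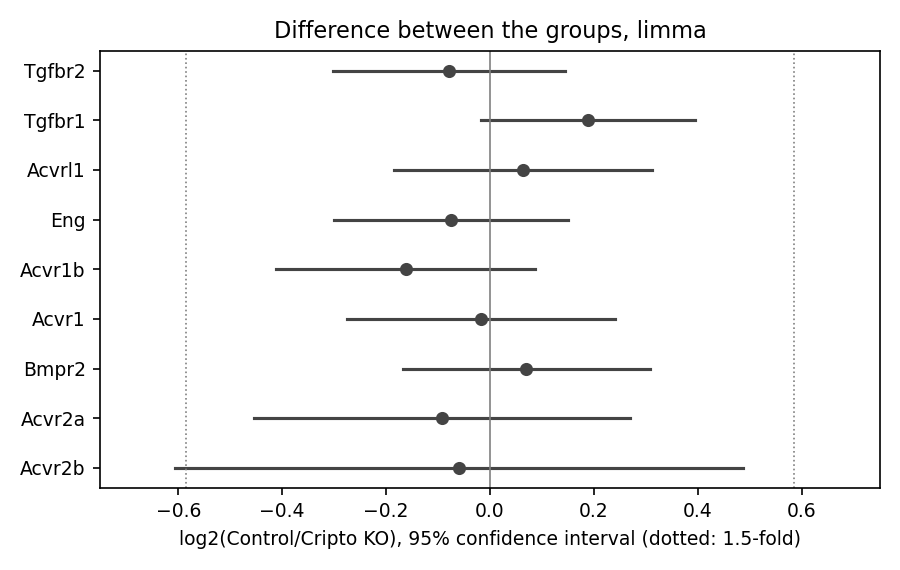
Log2(Control/Cripto KO) of each receptor (point) with its 95% confidence interval (line) from the limma fit, in the order of their level. Dotted lines mark a 1.5-fold difference. All intervals include 0, from Tgfbr1 with a value of 0.19 to Acvr1b with -0.16, and that of Acvr2b is the widest.

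**Figure D3:**
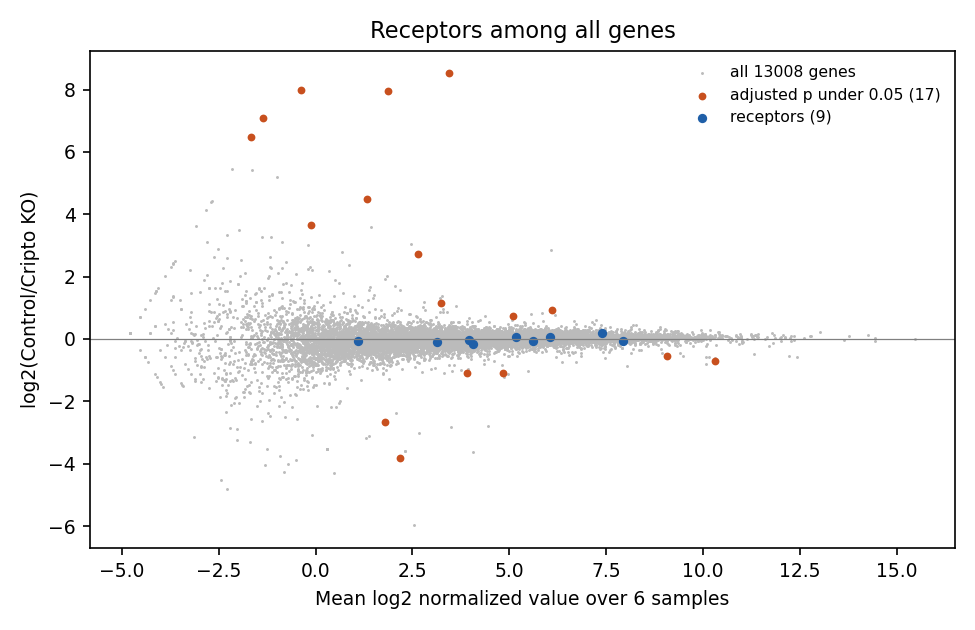
Log2(Control/Cripto KO) against the mean log2 normalized value for all 13008 genes (grey), the 17 genes called by limma (orange) and the 9 receptors (blue). The receptors sit close to 0 over the range of expression, and none is among the orange points.

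The spread within groups differed among the receptors. For Tgfbr2, with 2840 to 4215 reads per sample, counting error alone would give an SD of 0.03 on the log2 scale, and the SD within groups was 0.15. In Tgfbr1 these were 0.03 and 0.13. For Acvr1, with 170 to 235 reads, they were closer, 0.10 and 0.12. Of the 9 receptors, 8 had an SD within groups below the median of all genes, which was 0.17. That median covers genes of every level and was not matched to the levels of the receptors. Control replicate 2 held the highest value of 4 receptors (Tgfbr1, Tgfbr2, Acvr1 and Bmpr2), and Control replicate 3 held the lowest value of 4 (Acvr1, Acvr1b, Bmpr2 and Eng).

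Ratios of receptors within a sample do not depend on how the samples were scaled, and their difference between the groups does not depend on gene length. Of 5 ratios tested, that of Tgfbr2 to Tgfbr1 was lower in all Control than in all Cripto KO samples. It was 1.24, 1.31 and 1.43 in Control replicates 1, 2 and 3, against 1.62, 1.63 and 1.54 in the 3 Cripto KO replicates, with means of 1.33 ± 0.0917 and 1.60 ± 0.0490 (SD, n = 3 each). The log2 difference of Control minus Cripto KO was -0.27, and -0.32 to -0.22 when 1 sample was left out, with -0.22 without Control replicate 1 and -0.26 without Control replicate 2. The exact permutation test, two-sided, gave p = 0.1, the smallest value that 3 samples against 3 allow, and 0.5 after adjustment over the 5 ratios. Over every pair of genes with a mean value of at least 10, the ratio did not overlap between the groups in 15.1% of pairs. Under the same filter, which leaves out Acvr2a and Acvr2b, it was 3 of 21 pairs of the receptors, or 14.3%, a share near that of all genes. Among all 36 pairs it was 4, or 11.1%. All 4 pairs held Tgfbr1, with Acvr1, Acvr1b, Tgfbr2 and Acvr2b as partners.

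The other 4 ratios overlapped between the groups. Acvr2a to Acvr1b, the activin pair, was 0.550 ± 0.113 in Control and 0.522 ± 0.0884 in Cripto KO MPs (SD, n = 3 each, exact permutation p = 0.8). Acvr2b to Acvr2a was 0.247 ± 0.0519 and 0.241 ± 0.0443 (SD, n = 3 each, exact permutation p = 1.0). Eng to Acvrl1 was 0.702 ± 0.0359 and 0.779 ± 0.119, and Acvrl1 to Tgfbr1 was 0.382 ± 0.0616 and 0.414 ± 0.0379 (SD, n = 3 each, exact permutation p = 0.4 for each).

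**Figure D4:**
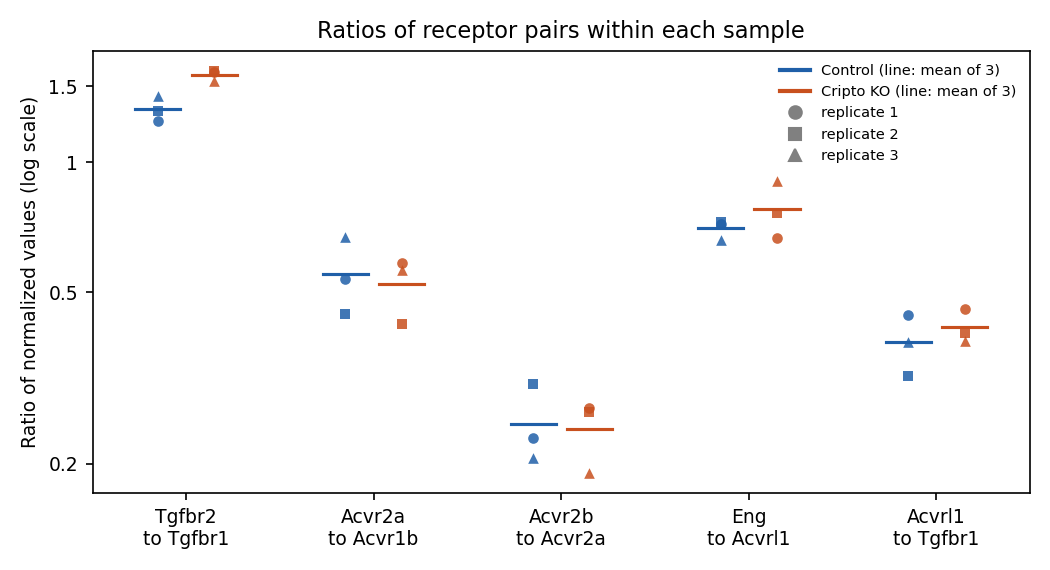
Ratio of the normalized values of receptor pairs within each sample (log scale). Points are samples, with the shape giving the replicate number, and lines are means of 3. For Tgfbr2 to Tgfbr1 the Control points lie between 1.24 and 1.43 and the Cripto KO points between 1.54 and 1.63, and in the other 4 ratios the groups overlap.

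The promoters of Tgfbr1 and Tgfbr2 are shown because this pair gave that ratio. They are the 250 bases before the RefSeq start (for Tgfbr1, the start that matches the GENCODE gene start) on GRCm38.p6, read along the coding strand, and capitals mark GAGGAA, a core sequence bound by the macrophage factor PU.1, and GGGCGG, the GC box, on either strand.
Tgfbr1 (chr4:47352972-47353221, plus strand): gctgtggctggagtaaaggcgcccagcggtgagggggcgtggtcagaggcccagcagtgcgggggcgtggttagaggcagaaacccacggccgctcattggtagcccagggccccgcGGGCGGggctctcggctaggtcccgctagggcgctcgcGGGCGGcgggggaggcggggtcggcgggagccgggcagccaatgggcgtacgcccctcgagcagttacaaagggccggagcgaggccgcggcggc
Tgfbr2 (chr9:116175364-116175613, minus strand): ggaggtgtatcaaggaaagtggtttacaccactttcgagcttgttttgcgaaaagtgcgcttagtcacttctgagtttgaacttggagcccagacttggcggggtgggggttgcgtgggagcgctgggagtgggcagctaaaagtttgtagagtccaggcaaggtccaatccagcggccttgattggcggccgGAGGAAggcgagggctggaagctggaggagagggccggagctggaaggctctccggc
That of Tgfbr1 had 74.8% G and C, with 2 GC boxes and 0 of GAGGAA, and that of Tgfbr2 had 58.4% G and C, with 0 GC boxes and 1 of GAGGAA. Over 32851 promoters of this length, 23.3% held GAGGAA and 32.7% held GGGCGG. A further RefSeq start of Tgfbr1 (window chr4:47385966-47386215) had 52.8% G and C, with 0 GC boxes and 1 of GAGGAA. A promoter was found for 8 of the receptors, in 9 windows, of which 4 held GAGGAA and 6 held GGGCGG. These are matches of letters and do not show binding.

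Genes that act before and after the receptors were then examined, as 6 lists of the pathway with 80 measured genes in all. None had an adjusted p-value under 0.05 (limma), and 9 genes were below 0.05 without adjustment, or 11.2% where all genes gave 8.59%. Of these 9, 3 had higher values in Control and 6 in Cripto KO MPs. Among the 9 measured ligands 0 had an unadjusted p-value under 0.05 and the median log2 fold change was -0.06. Tgfb1, the main ligand of TGFBR2, was high, at 478 ± 33.5 in Control and 445 ± 9.49 in Cripto KO MPs (SD, n = 3 each, log2 fold change 0.10, adjusted p = 0.726, limma). Lefty1, which blocks Nodal, was 0.954 ± 0.242 and 1.49 ± 0.381, and Gdf9, a ligand of the oocyte, was 1.01 ± 0.136 and 1.49 ± 0.279 (SD, n = 3 each, adjusted p = 0.688 and 0.69, limma). These values rested on few reads, 8 to 28 per sample for Lefty1 and 11 to 28 for Gdf9.

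Other receptors and co-receptors were 8 measured genes, with a median log2 fold change of -0.08. Nrp2, a co-receptor for semaphorins and VEGF, was the only one with an unadjusted p-value under 0.05, at 118 ± 10.5 in Control and 137 ± 11.0 in Cripto KO MPs (SD, n = 3 each, log2 fold change -0.21, adjusted p = 0.561, limma). Bambi, which encodes a decoy of type I receptors without a kinase, was 47.7 ± 3.93 and 54.5 ± 6.74 (SD, n = 3 each, log2 fold change -0.19, adjusted p = 0.686, limma). Vasn, which encodes a protein that binds TGFβ, was 5.61 ± 0.643 and 4.53 ± 0.824 (SD, n = 3 each, adjusted p = 0.698, limma).

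All 15 measured genes of the list of ligand traps and latency proteins had negative log2 fold changes. Their median was -0.17, against 0.01 over all genes. Not all of these proteins trap or store ligand, since the list also holds Thbs1 and Itgav, with log2 fold changes of -0.07 and -0.03. Fst and Bmper rested on 3 to 9 and 3 to 20 reads per sample. In limma 2 of the 15 genes had an unadjusted p-value under 0.05 and 0 an adjusted one. These were Dcn, 6.62 ± 1.09 in Control and 8.93 ± 1.55 in Cripto KO MPs, and Bgn, 36.2 ± 3.72 and 43.4 ± 5.58 (SD, n = 3 each, adjusted p = 0.571 and 0.578, limma), which encode small proteoglycans of the matrix that can bind TGFβ. Ltbp3, which holds latent TGFβ, was 42.7 ± 6.07 and 50.4 ± 5.85 (SD, n = 3 each, adjusted p = 0.652, limma). Markers of fibroblasts, among which Dcn is listed too, had the same sign. All 12 had negative log2 fold changes, with a median of -0.24, and 6, or 50.0%, had an unadjusted p-value under 0.05 (limma). The summed value of these 12 genes was 530 to 558 in Control and 627 to 679 in Cripto KO samples, without overlap. None of the defining markers was at 0. Pdgfra, with only 5 to 18 reads per sample, was 0.405 to 0.694 in Control and 1.03 to 1.21 in Cripto KO samples. Most of this sum came from 4 genes of the matrix, Col1a1 (means of 195 and 231), Col3a1 (147 and 182), Col1a2 (118 and 139) and Postn (57.8 and 66.1). The part of fibroblast RNA in the traps was not tested.

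Of the 7 measured SMADs, which carry the signal of the receptors to the nucleus, 0 had an unadjusted p-value under 0.05 in limma, and the median log2 fold change was 0.05. Smad2 and Smad4 were 35.0 ± 3.35 and 39.2 ± 1.21 in Control MPs, against 30.8 ± 3.33 and 35.9 ± 2.51 in Cripto KO MPs (SD, n = 3 each, adjusted p = 0.69 and 0.711, limma). The inhibitory Smad6 was 3.25 ± 0.399 and 4.36 ± 1.09 (SD, n = 3 each, adjusted p = 0.69, limma). Among 22 genes for adaptors and turnover of the receptors, Snx6, a sorting nexin, had an unadjusted p-value under 0.05 (88.1 ± 4.53 in Control and 77.5 ± 5.26 in Cripto KO MPs, SD, n = 3 each, adjusted p = 0.548, limma). The summed value of the 22 genes was 2424 to 2506 in Control and 2346 to 2388 in Cripto KO samples, without overlap. Of the 22, 15 had higher and 7 lower values in Control, and the median log2 fold change was 0.04. Ppp1r15a, named after its values were seen, had the largest difference of means, with overlapping groups. It was 708 ± 86.0 in Control and 628 ± 42.8 in Cripto KO MPs (SD, n = 3 each, adjusted p = 0.69, limma). In 5 of the 22 genes, or 22.7%, the groups did not overlap, against 14.5% of all genes. Whether the list as a whole shifted was not tested. Ctdsp1, a phosphatase that can act on SMADs, and Dab2, an endocytic adaptor, had log2 fold changes of 0.16 and -0.13 (adjusted p = 0.598 and 0.664, limma).

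Of 20 measured target genes of SMADs, 5 had an unadjusted p-value under 0.05 in limma, or 25.0% against 8.59% of all genes, and they did not point one way. Col1a1, Ctgf and Tgif2 had higher values in Cripto KO, and Cdkn1a and Tgfbi, named here after their values were seen, in Control MPs. Col1a1, which encodes a chain of type I collagen, was 195 ± 5.64 in Control and 231 ± 11.1 in Cripto KO MPs (SD, n = 3 each, log2 fold change -0.25, adjusted p = 0.392, limma), and is also on the list of fibroblast markers. Ctgf, a matrix protein, was 3.82 ± 0.524 and 5.96 ± 0.650 (SD, n = 3 each, log2 fold change -0.65, adjusted p = 0.42, limma). Tgif2, a corepressor of SMADs, was 5.87 ± 1.02 and 8.10 ± 0.616 (SD, n = 3 each, log2 fold change -0.48, adjusted p = 0.51, limma). The median over the 20 genes was -0.03.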

How the data were processed

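RNA-seq libraries of 3 Control and 3 Cripto KO samples were made by the authors with the NEBNext Ultra RNA kit. The authors trimmed the reads with Cutadapt 1.7.1, discarded reads under 30 bases, used RSEM 1.2.20 with mouse transcripts (GRCm38, Ensembl release 91), and deposited a normalized signal per gene made with LIMMA. Whole reads were recovered from 100.0% of 78048 values within 0.01 read, and edgeR (version 4.0.16) on these reads called 17 genes. Groups came from the sample labels. The main test was limma (version 3.58.1, R 4.3.3), using lmFit and a trended eBayes on the log2 of the deposited values (no pseudocount, no value being 0) of the 13008 genes, with Benjamini-Hochberg adjustment and no replicate block. Alternatives were pseudocounts, a filter on low values, other scalings and variance settings, voom, DESeq2 (version 1.42.0), edgeR, blocking on the replicate number, and omitting single samples. The limma and edgeR tests were tested on simulated data. Gene models came from GENCODE M21 (GRCm38) and promoters from RefSeq. The members and lists were chosen with earlier results of these data known. Named are all receptors, the 3 genes of each pathway list with the smallest p, the 3 genes most correlated with the receptor of smallest p, called genes within 1 Mb of a receptor, and markers of the sort, the labels and other cells. The planned ratio of Bmpr2 to Bmpr1a was not made, since Bmpr1a was not analysed here. The study gives the 3 samples per group as biological replicates. Exact tests were run in Python 3.11.15 with scipy 1.17.1.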

Additional observations from a re-analysis of the deposited data

How the results depend on the processing

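In all alternatives 0 receptors and 0 genes of the 6 pathway lists passed an adjusted p-value of 0.05, and the smallest adjusted p of a receptor was 0.465 (Tgfbr1 without Control replicate 1, limma). The number of genes called over all genes was 17, and 6 with quantile normalization, 5 without a variance trend, 31 with the robust option, 9 with voom weights and 74 with DESeq2. It went from 5 without Cripto KO replicate 2 to 31 without Control replicate 1, and was 7 without Control replicate 3 or Cripto KO replicate 3 and 10 without Cripto KO replicate 1. With the replicate block it was 2 (928 genes with an unadjusted p-value under 0.05, limma), and 0 receptors were called. Both groups carry the same replicate numbers, and the labels do not say whether same-numbered samples belong together. The correlations of the deviations of same-numbered samples were -0.21, -0.0052 and -2.46e-05, so the numbers were not taken as pairs. The cause of these differences was not tested.

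Of 99 receptor fold changes under alternatives with all 6 samples, 98 kept their direction, and Acvr2b was 0.0011 with quantile normalization. With 1 sample left out, 46 of 54 kept it, and 7 receptors turned in at least 1 fit. The log2 fold change went from 0.09 to 0.25 for Tgfbr1, -0.10 to 0.0538 for Acvr1, -0.23 to -0.09 for Acvr1b, -0.0193 to 0.17 for Acvrl1, -0.17 to 0.0103 for Tgfbr2, -0.21 to 0.0222 for Acvr2a, -0.16 to 0.0436 for Acvr2b, -0.0207 to 0.16 for Bmpr2 and -0.16 to 0.0155 for Eng. The log2 differences of ratios went from -0.0806 to 0.21 for Acvr2a to Acvr1b, from -0.13 to 0.15 for Acvr2b to Acvr2a, from -0.24 to -0.025 (without Cripto KO replicate 3) for Eng to Acvrl1 and from -0.24 to -0.003 (without Control replicate 2) for Acvrl1 to Tgfbr1. In the order of levels, 7 of 9 receptors kept their place with the longest transcript and 5 with the mean length of coding transcripts. Depth limits Acvr2b, with 25 to 39 reads.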

Other observations

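Tgfbr1 had the smallest p of the receptors. The genes whose log2 values followed it most closely over the 6 samples, among genes with a mean value of at least 10, were Hscb (Pearson's r 0.992, Spearman's rho 0.829), Eps15 (0.990 and 1.0) and Gdpd1 (0.987 and 0.943). Eps15, an adaptor of endocytosis, was 126, 149 and 121 in Control samples, against 123, 112 and 108 in Cripto KO samples. All 3 genes were highest in Control replicate 2, as Tgfbr1 was. They were picked as the highest of 7730 genes and share the libraries, so the correlations are a description only. Among the other 6 receptors with such a mean value, Pearson's r with Tgfbr1 was highest for Bmpr2 (0.705, Spearman's rho 0.371) and Spearman's rho was highest for Acvrl1 (0.771, Pearson's r 0.302).

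Of the other markers, 10 macrophage genes had a median log2 fold change of 0.04, 6 genes of Ly6C-high monocytes 0.25 and the 4 neutrophil genes with reads -0.24. In these lists 0 genes had an unadjusted p-value under 0.05 (limma). Of the 6 monocyte genes 4 were higher in Control. Higher in Cripto KO MPs were Ly6c1 (log2 fold change -0.51) and Ccr2 (-0.30), which at 36.8 to 69.4 had the highest values of the 6. Mrc1, which encodes CD206, was the only 1 of the 10 macrophage genes without overlap, or 10.0% against 14.5% of all genes. It was 575 to 602 in Control and 616 to 677 in Cripto KO samples (log2 fold change -0.13, adjusted p = 0.64, limma). The neutrophil genes S100a9, Retnlg and Ngp had 0 reads in all samples. Of the 4 with reads, Csf3r had 1188 to 1563 reads per sample and Mmp8 had 88 to 159. S100a8 had 8 to 22 reads per sample and Cxcr2 had 6 to 16. Cd79b, a gene of B cells, was 5.92 to 10.9 over the 6 samples. For 5 of 8 muscle genes, or 62.5% where all genes gave 8.59%, unadjusted p was below 0.05 (limma). After adjustment 0 were. All 5 were higher in Control, but only 1 of the 8 genes, Myh4, separated the groups. Reads were few in some samples, with 1 to 245 for Myh4 and 0 to 55 for Myh1. Acta1, Mylpf and Des were not among the 5 (log2 fold changes 0.28, -0.07 and -0.22). The summed value of the 8 genes overlapped, at 37.6 to 77.7 in Control and 19.0 to 56.3 in Cripto KO samples. In each group it was highest in replicate 1.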
